A study of Mus musculus with 24 samples.

Results

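The alpha-globin locus of the mouse lies on chromosome 11 and was followed here through 24 lists of open chromatin, made by ATAC-seq, in which a transposase inserts adapters into accessible DNA. The 6 genes taken were Nprl3, Hba-x, Hba-a1, Hbq1b, Hba-a2 and Hbq1a, and the region comprised these genes with 20 kb added on each side (chr11:32205628-32320873, build mm10, 115.2 kb). The peaks of all lists were merged into 558010 elements wherever they overlapped, and 53 of these elements, holding 490 peaks, touched the region. The lists covered 12 populations of mouse hematopoietic cells with 2 libraries each. Bone marrow of untreated adult C57BL6 mice gave LSK cells, the stem and early progenitor fraction, and the common myeloid progenitor (CMP). It also gave the granulocyte monocyte progenitor (GMP) and the megakaryocyte erythroid progenitor (MEP). The erythroid branch was covered by the colony forming unit erythroid (CFUE) and by the erythroblast (ERY), and the megakaryocyte branch by the colony forming unit megakaryocyte (CFUMK) and the immature megakaryocyte (iMK). Monocytes (MON) and neutrophils (NEU) were taken from blood of such mice. The line G1E, made of erythroid progenitors, lacks the transcription factor GATA1. Its single subline G1E-ER4+E2 carries a fusion of GATA1 to the estrogen receptor and was given estradiol (E2). CFUE and ERY were both sorted as Ter119 and CD44 positive cells and were parted by size, so ERY is the smaller and later of the pair.

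Adult hemoglobin is made of alpha and beta chains. Hba-a1 and Hba-a2 are the duplicated genes of the adult alpha chain, Hba-x encodes the embryonic zeta chain, and Hbq1a and Hbq1b encode theta globins of uncertain function. Nprl3 lies next to them, encodes a subunit of a complex that restrains growth signalling when amino acids are short, and is read in most cells. Its introns hold most of the enhancers of the alpha-globin genes, which are known as R1, R2, R3, Rm and R4. These are bound in erythroid cells by GATA1, TAL1 and partner factors, and R1 and R2 are known as the strongest. An open enhancer or promoter is more readily cut by the transposase, so a peak marks accessible DNA, not transcription. In mm10 Nprl3 (ENSMUSG00000020289.15) spans chr11:32225628-32267707 on the minus strand. The globin genes follow on the plus strand, with Hba-x (ENSMUSG00000055609.8) at chr11:32276400-32278116, Hba-a1 (ENSMUSG00000069919.7) at chr11:32283511-32284465, Hbq1b (ENSMUSG00000073063.3) at chr11:32286965-32287784, Hba-a2 (ENSMUSG00000069917.7) at chr11:32296489-32297298 and Hbq1a (ENSMUSG00000020295.1) at chr11:32300069-32300873.

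Each list held between 52720 and 230877 peaks of at most 150 bp, and each peak carried a deposited score without a stated unit. The low scores lay on equal steps, whose inverse gave a relative depth. Set against the deepest library it was 40.2% to 100% in the primary cells and 22.3% to 27.0% in the 4 libraries of the cell lines, so that a peak missing from the lines may have been below detection. The value of an element in a library is the highest score of its peaks there and 0 where no peak was called. A higher value can come from more cells with the element open or from more accessible DNA in each cell, and these cannot be told apart. Of the 6 erythroid marker promoters reported here (Klf1, Epor, Slc4a1, Alas2, Ermap and Rhag) 6 had a peak in the 4 CFUE and ERY libraries, 5 in the MEP libraries, 5 to 6 in the lines and 0 in MON and NEU. CFUMK had a peak at 5 of them, as MEP did, CMP at 4 to 5, LSK at 2 to 4, GMP at 2 and iMK at 2 to 3. MON had a peak at 4 of 5 monocyte, 2 to 3 of 6 granulocyte, 3 of 5 T and NK cell and 1 of 4 B cell promoters. NEU had one at 4 of 4 B cell promoters, 3 to 4 of 6 granulocyte, 3 of 5 monocyte and 1 of 5 T and NK cell promoters, and the part of other cells in its values was not tested. Of 5 monocyte marker promoters 0 to 1 had a peak in CFUE and ERY, of 6 granulocyte promoters 1 to 2, of 6 megakaryocyte promoters 2 to 3, of 5 stem cell promoters 1 to 3, of 5 T and NK cell promoters 0 to 1 and of 4 B cell promoters 0. In iMK 2 to 3 of the 6 megakaryocyte promoters, 5 of 6 granulocyte and 5 of 5 monocyte promoters had a peak. These lists thus do not bear out the label, and values of iMK below are to be read with this. Progenitors also had peaks there. Of the 6 granulocyte promoters GMP had 6, CMP 5 and LSK 2 to 5, and of the 5 monocyte promoters GMP 5, CMP 4 and LSK 1 to 5. Of the megakaryocyte promoters CMP had 6, LSK 5 and GMP 3. In CFUMK 4 to 5 of the 6 megakaryocyte, 6 granulocyte and 4 of 5 monocyte promoters had one. Library numbers lay together for 7 of the 12 types (all marrow types except LSK), in another range for MON, NEU and LSK replicate 2, and in a further range for the lines, and the sources used here do not say what the numbers stand for. In the comparison of CFUE and ERY with MON and NEU, cell type and number range cannot be told apart.

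The upstream elements were given the names R1 to R4 by their distance from the Hba-x start, within 1 kb of 31, 26, 21, 12 and 8 kb. R1 lay 30.71 kb, R2 25.36 kb and Rm 11.14 kb upstream in introns of Nprl3, R3 20.08 kb upstream over an Nprl3 exon beside an alternative transcript start, and R4 7.27 kb upstream between Nprl3 and Hba-x. Their sequences are shown because they are the enhancers of the locus, and the highest scores of the region fell on R1 and R2. Each line gives the 150 bp of the highest peak in ERY replicate 1 on the plus strand of mm10, and capitals mark GATA matches (AGATAA or TGATAA, with G also allowed as the last base, on either strand) and, in Rm, the NF-E2 core TGAGTCA read on the minus strand.
R1, chr11:32245700-32245849: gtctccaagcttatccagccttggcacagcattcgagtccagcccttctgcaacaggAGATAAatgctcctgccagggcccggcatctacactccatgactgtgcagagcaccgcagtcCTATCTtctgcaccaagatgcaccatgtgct
R2, chr11:32250927-32251076: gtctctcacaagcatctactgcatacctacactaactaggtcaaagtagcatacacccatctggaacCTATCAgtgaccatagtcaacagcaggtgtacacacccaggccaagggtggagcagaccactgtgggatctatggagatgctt
R3, chr11:32256228-32256377: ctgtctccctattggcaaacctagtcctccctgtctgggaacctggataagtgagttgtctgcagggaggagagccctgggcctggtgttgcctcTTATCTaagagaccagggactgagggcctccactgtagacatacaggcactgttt
Rm, chr11:32265206-32265355: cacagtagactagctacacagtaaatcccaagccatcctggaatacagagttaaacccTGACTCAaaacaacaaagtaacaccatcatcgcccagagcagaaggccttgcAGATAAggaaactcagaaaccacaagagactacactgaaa
R4, chr11:32269078-32269227: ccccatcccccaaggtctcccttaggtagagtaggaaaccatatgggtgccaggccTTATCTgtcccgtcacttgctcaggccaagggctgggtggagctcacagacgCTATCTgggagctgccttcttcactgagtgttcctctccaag

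R1 and R4 held 2 GATA matches each in these 150 bp, and R2, R3 and Rm held 1 each. In the 200 bp about the centre of the whole element, the 5 held 1 to 2 GATA matches each, while 30.2% of all 558010 elements and 28.3% of the 53 elements of the region held any. An NF-E2 core lay in those 200 bp of R2 and of Rm, against 5.26% of all elements. None of the 5 held a CACCC box (CCNCACCC, 8.03% of all elements), and E-box matches (CANNTG), present in 69.9% of all elements, lay in these 200 bp of R2, R3 and R4. In the 150 bp shown, which are other windows, they lay in R1, R2 and R4. Motifs were searched on both strands, and a match shows only that the letters are there.

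The promoter of Hba-a2 is shown as the stretch that Hba-a1 shares. It ends at the last base before the annotated Hba-a2 transcript, comes from the RefSeq promoter table of GRCm38.p6, the mm10 assembly, and holds 1 GATA match in capitals.
Hba-a2, chr11:32296242-32296488: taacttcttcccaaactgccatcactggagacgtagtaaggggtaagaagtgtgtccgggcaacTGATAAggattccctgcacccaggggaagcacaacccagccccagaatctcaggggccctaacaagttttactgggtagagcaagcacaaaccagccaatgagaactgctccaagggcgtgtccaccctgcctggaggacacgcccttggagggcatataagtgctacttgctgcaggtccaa

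All 247 of 247 bases compared were the same before Hba-a1 and Hba-a2, and 239 of 250 were the same before Hbq1b and Hbq1a. Of the 30-base stretches of the merged Hba-a2 promoter element 0.0% occur once in the genome, and of those of the Hba-a1 promoter element 16.0% do, the rest recurring within the region. Reads were cut to 30 bases and reads with several places in the genome were kept, so the values of the 2 promoters are not independent measurements. By the same count 73.2% of the Hbq1b and 59.8% of the Hbq1a promoter element occur once, and all of R1, R2, R3, Rm and R4.

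Of the 53 elements 35 had a peak in 2 or more libraries and 18 in a single library. In both libraries of at least 1 type 30 elements had a peak, 56.6% of the 53 against 35.8% of all elements, and 11 of these overlapped Nprl3, out of 17 elements there. In both libraries of all 12 types 2 elements had a peak, at the 3′ end of Nprl3 beside the Mpg start, 49.97 kb upstream of Hba-x, and at the Hbq1b promoter. The element 37.79 kb upstream and the Hbq1a promoter had a peak in at least 1 library of each type. Both libraries of ERY shared 20 elements, of CFUE 19, of CMP 18, of CFUMK 16 and of MEP 14. LSK shared 10, GMP 11, iMK 12, G1E 9 and G1E-ER4+E2 12. MON shared 7 and NEU 6, the lowest numbers. The lists differ in length, and the share of all elements that each type holds in both libraries was not determined. All 5 of the named upstream elements were found in both libraries of MEP, CFUE, ERY, CFUMK, G1E and G1E-ER4+E2, 4 of 5 in CMP, only Rm in LSK, GMP and iMK, and 0 of 5 in MON and NEU. The map of the region sets these elements beside the genes.

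**Figure D1:**
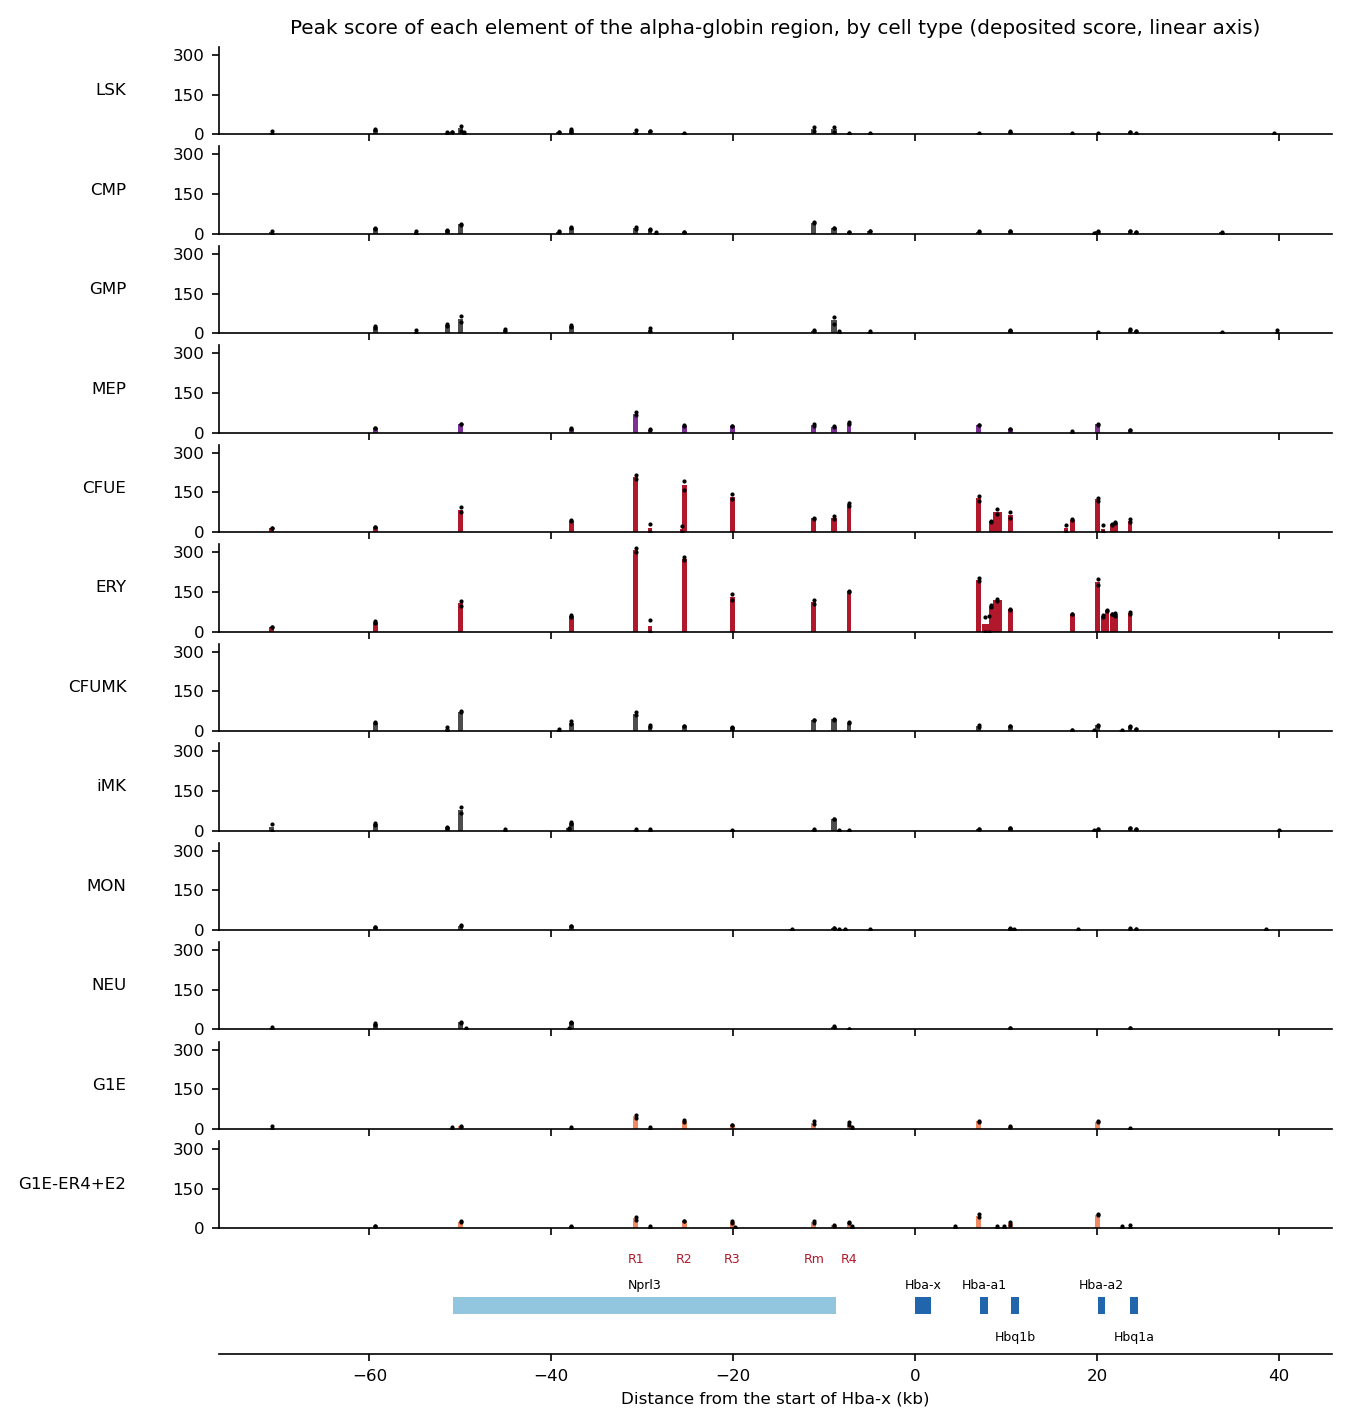
Score of each element of the region (bars, mean of 2 libraries; points, the libraries; bars of narrow elements are drawn 0.5 kb wide) against its distance from the Hba-x start in kb, with 1 row per cell type and the 6 genes below (red, CFUE and ERY; purple, MEP; orange, cell lines; grey, the rest). In CFUE and ERY the tallest bars stand at R1 and R2 (209.95 and 176.75 in CFUE, 308.55 and 276.5 in ERY), and MON and NEU have no bar at R1, R2, R3 or Rm.

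R1 was the highest element of the region in MEP, CFUE and ERY. Its score was 16.1 and 0 in the LSK libraries, 25.5 and 16.4 in CMP, 0 and 0 in GMP, 66.1 and 76.4 in MEP, 217.1 and 202.8 in CFUE and 314.9 and 302.2 in ERY. CFUMK had 59.2 and 72.2, iMK 0 and 6.67, and MON and NEU had no peak. Its values rose without overlap from CMP to MEP, from MEP to CFUE and from CFUE to ERY, while those of MEP and CFUMK overlapped as deposited. With each list scaled to the elements shared by all libraries, R1 had 88.7 and 97.7 in MEP and 38.0 and 42.3 in CFUMK, without overlap. Within its list R1 stood above 99.8% of all peaks in both ERY libraries and above 98.9% in both MEP libraries.

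R2 was low outside the erythroid types. LSK had 5.74 and 0 and CMP 7.61 and 5.91, while both GMP libraries were at 0. The score was 24.4 and 28.1 in MEP, 194.7 and 158.8 in CFUE and 281.0 and 272.0 in ERY. It had 18.5 and 18.1 in CFUMK and no peak in iMK, MON and NEU. The mean of CFUE was 6.73-fold that of MEP, where R1 showed 2.95-fold and R4 2.95-fold. All libraries of CFUE and ERY lay above those of the other types.

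R3 was the only upstream element without a peak in any LSK, CMP or GMP library. It scored 23.5 and 25.5 in MEP, 143.4 and 123.4 in CFUE and 143.3 and 121.2 in ERY, while CFUMK had 12 and 14.9 and iMK 0 and 3.49. Unlike the other 4 upstream elements, R3 did not differ between CFUE and ERY beyond the spread of the libraries, with means of 133.4 and 132.25.

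R4 followed R1 at a lower level. It had 4.78 and 0 in LSK, 6.97 and 5.69 in CMP, 0 in GMP, 32.4 and 38.4 in MEP, 110.7 and 98.4 in CFUE and 151.4 and 155.4 in ERY. CFUMK had 30.0 and 33.6, overlapping MEP as deposited, and 1 NEU library had a peak of 3.15. With the lists scaled to the shared elements, R4 had 43.5 and 49.1 in MEP and 19.2 and 19.7 in CFUMK, without overlap.

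Rm had the broadest pattern of the 5. It was open in both libraries of 10 types, with 28.4 and 11.9 in LSK, 42.7 and 40.5 in CMP, 8.23 and 10.1 in GMP, 24.2 and 33.3 in MEP and 41.1 and 42.6 in CFUMK. CFUE had 52.1 and 50.9 and ERY 118.2 and 103.3, and iMK had 3.29 and 4.18. Its CMP libraries lay above both MEP libraries as deposited, but overlapped them (37.9 and 39.2 against 32.5 and 42.6) once each list was scaled to the elements shared by all libraries.

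**Figure D2:**
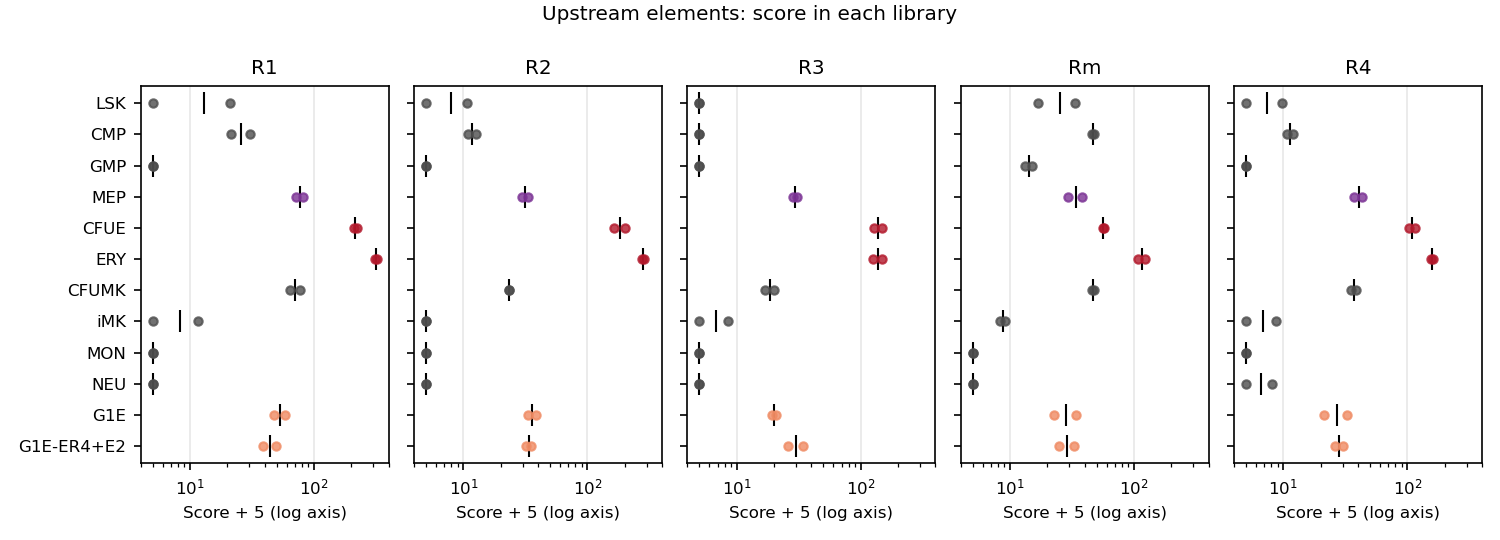
Score plus 5 on a log axis for R1, R2, R3, Rm and R4 in each of the 24 libraries (points; vertical marks, mean of the 2 libraries), where a value of 5 stands for no called peak (colours: red, CFUE and ERY; purple, MEP; orange, cell lines; grey, the rest). R1, R2, R3 and R4 are highest in CFUE and ERY, and Rm is also open in LSK, CMP and GMP.

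At the promoters, Hba-a1 and Hba-a2, which share the sequence shown, gave almost equal values. The Hba-a1 element scored 5.26 and 0 in LSK, 8.79 and 7.28 in CMP, 0 in GMP, 30.1 and 30.1 in MEP, 136.8 and 119.5 in CFUE and 202.3 and 191.1 in ERY. It had 17.2 and 23.9 in CFUMK, 5.44 and 5.08 in iMK and no peak in MON or NEU. The CFUE and ERY libraries lay above all others and did not overlap each other. Over the 17 libraries with both promoters called, the score of Hba-a1 was 0.764 to 1.18 times that of Hba-a2, with a median ratio of 1.

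Hba-x, the embryonic gene, had no peak within 500 bp of its start in any of the 24 lists. The RefSeq promoter table holds 2 GATA matches in the 250 bp before it, against 26.5% of all promoters with any match there.

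The theta globin promoters were open in nearly all types and higher in CFUE and ERY. The Hbq1b element scored 4.24 to 18.2 in the 16 libraries of LSK, CMP, GMP, MEP, CFUMK, iMK, MON and NEU, 76.7 and 55.0 in CFUE and 84.5 and 83.2 in ERY. Its paralogue Hbq1a scored 4.57 to 18.7 in those 16 libraries, 48.7 and 38.2 in CFUE and 72.5 and 67.4 in ERY. In both genes CFUE and ERY lay above the other primary types without overlap. Hbq1b had 7.36 and 9.42 in G1E and 13.5 and 24.3 in G1E-ER4+E2. Hbq1a had 0 and 4.32 in G1E and 12.9 and 0 in G1E-ER4+E2. Each of these 2 elements held the same match to a core motif of CTCF on the minus strand, one found in the middle 200 bp of 5.88% of all elements and of 13.2% of those of the region, and of interest because CTCF sites are known to bound the locus. The 30 bases about it, with the match in capitals, were the same in both.
Hbq1b, chr11:32286925-32286954: cgatgcagcGCCCCCTGGCGGcctcttgtg
Hbq1a, chr11:32300030-32300059: cgatgcagcGCCCCCTGGCGGcctcttgtg

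The promoter at the 5′ end of Nprl3, the host gene of the enhancers, went another way. Its element, 8.92 kb upstream of Hba-x, scored 27.4 and 8.33 in LSK, 19.8 and 22.3 in CMP, 61.2 and 35.4 in GMP, 19.8 and 23.6 in MEP, 61.1 and 48.7 in CFUE, 43.5 and 47.3 in CFUMK and 44.9 and 42.2 in iMK. MON and NEU had 7.06 to 13.1. No peak was called there in either ERY library, whose relative depth was 69.1% to 78.6%, and the cause was not tested. ERY was the only primary type without this peak, while the alpha-globin promoters were at their highest in it. All 30-base stretches of this element occur once in the genome. The element 37.79 kb upstream of Hba-x, near another Nprl3 transcript start, scored 56.7 and 62.3 in ERY, its highest values.

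**Figure D3:**
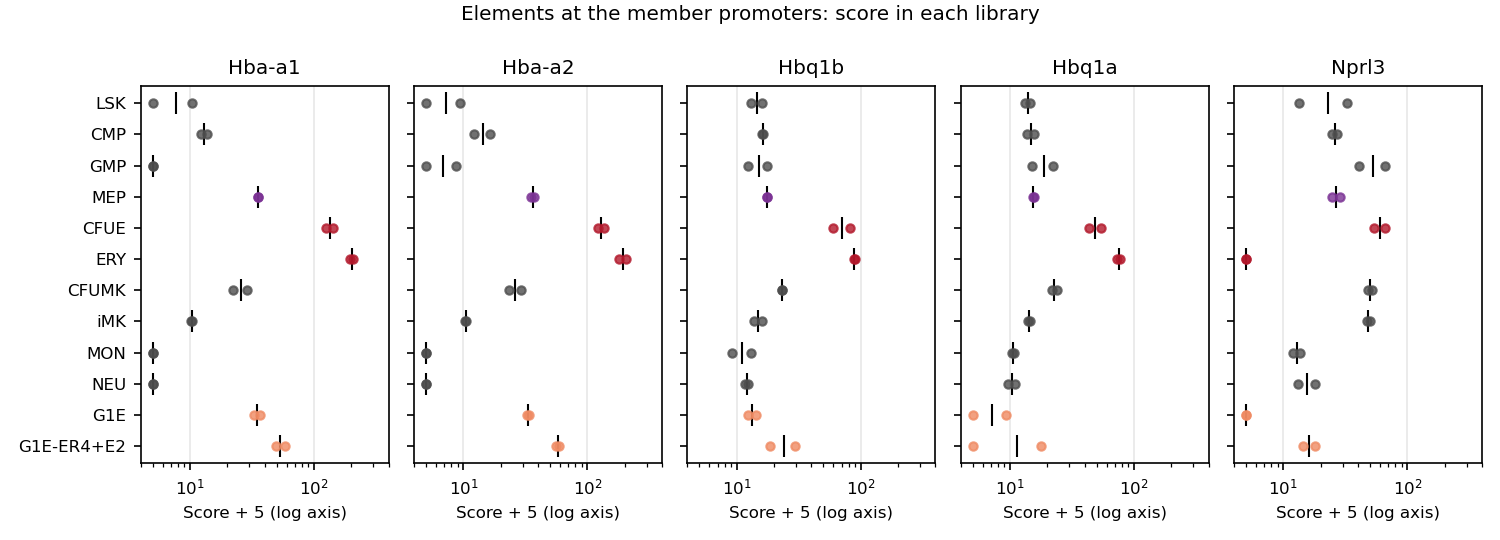
Score plus 5 on a log axis for the elements at the promoters of Hba-a1, Hba-a2, Hbq1b, Hbq1a and Nprl3 in each library (points; vertical marks, mean of 2), where 5 stands for no called peak. The globin promoters are highest in ERY (means of 196.7, 187.1, 83.85 and 69.95), and the Nprl3 promoter sits at 5 in ERY and G1E.

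Downstream of the alpha genes, further elements were called in CFUE and ERY and in almost no other library. The element 8.34 kb downstream of the Hba-x start scored 42.6 and 38.6 in CFUE and 91.8 and 102.2 in ERY, with no peak in the other 20 libraries. The element at 9.05 kb, 979 bp wide and placed between Hba-a1 and Hbq1b, scored 86.1 and 68.4 in CFUE and 115.7 and 122.7 in ERY, and 9.24 in 1 G1E-ER4+E2 library. Behind Hba-a2, the elements at 21.68 and 22.02 kb scored 31.4 and 26, and 38.7 and 33.2, in CFUE, and 64.8 and 66.1, and 60.1 and 70.6, in ERY. In each of these 4 elements both ERY libraries exceeded both CFUE libraries. Of their 30-base stretches 61.5%, 85.8%, 90.6% and 96.2% occur once in the genome in this order, and whether their highest peaks lie in those stretches was not tested. The element at 17.29 kb, between the duplicated gene pairs, scored 48.3 and 46.7 in CFUE and 66.6 and 66.9 in ERY, 4.86 and 5.66 in CFUMK, and at most 7.4 in any other library. ERY alone had a peak in both libraries at 21.11 kb (79.1 and 80.7), but only 33.5% of that element occurs once. The same holds more strongly for the element at 20.68 kb over Hba-a2, with 63.5 and 57.0 in ERY and 27.1 in 1 CFUE library, of which 6.6% occurs once.

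The remaining elements were lower or shared. The element at the 3′ end of Nprl3 scored from 9.0 in G1E replicate 1 to 117.5 in ERY replicate 1, and was above 60 in CFUE, ERY, CFUMK and iMK and in 1 GMP library. The element 37.79 kb upstream of Hba-x, near another Nprl3 transcript start, had a peak in 23 libraries, from 5.89 to 62.3. It was highest in ERY and then in CFUE. An element 59.36 kb upstream at the Rhbdf1 gene was called in 22 libraries, from 8.47 to 38.7, and in neither G1E library. An element 51.44 kb upstream, outside any gene, scored 33.9 and 25.7 in GMP, 11 and 13.6 in CMP and 9.86 and 13.6 in iMK, and 0 in MEP, CFUE, ERY, MON, NEU and the lines. The element 29.15 kb upstream, in an Nprl3 intron, divided replicates, with 0 and 32.1 in CFUE and 42.5 and 0 in ERY.

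Whether the region holds more peaks in the erythroid types was asked with the type mean as the unit. The libraries of CFUE had 29 and 29 peaks, of ERY 34 and 30, of G1E 18 and 16 and of G1E-ER4+E2 21 and 20. The other types ranged from 11 and 11 in NEU to 23 and 28 in CMP, and LSK had 31 and 13. The 4 erythroid types averaged 24.6 ± 7.04 (SD) and the other 8 types 18.3 ± 4.70, a difference of 6.31 peaks that did not pass an exact permutation test over types (two-sided, p = 0.097). Per 100000 called peaks the values were 29.6 ± 2.79 and 10.6 ± 1.41, the 4 erythroid types lay above all others, and the exact permutation p was 0.00202, the smallest that 4 against 8 types allow. With the 10 primary types only the peak number differed by 12.2 (exact permutation p = 0.0222, the smallest allowed), and within the 7 types whose library numbers lie together by 10.7 (exact permutation p = 0.0476, the smallest allowed). With the flank widened to 50 kb the difference was 0.875 (exact permutation p = 0.861), and with no flank 7.38 (exact permutation p = 0.0424), so the result rests on the flank chosen and on whether peaks are counted as such or relative to the list.

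**Figure D4:**
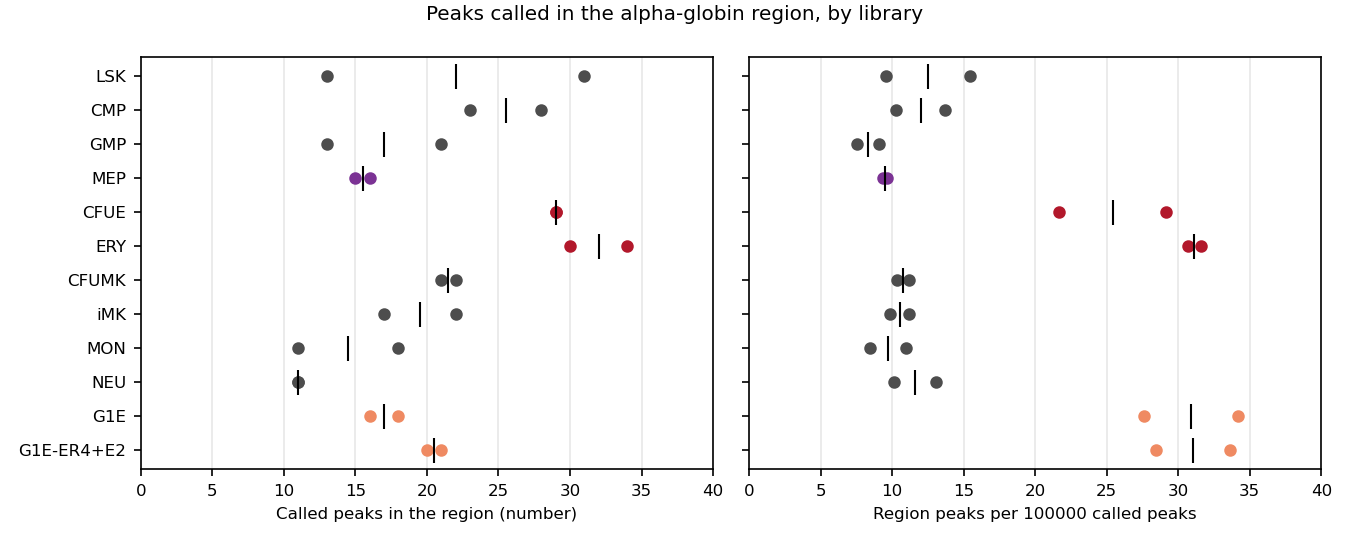
Number of peaks called in the region (left) and that number per 100000 called peaks of the list (right) for the 2 libraries of each type (points; vertical marks, mean). The cell lines lie between 16 and 21 peaks on the left and between 27.6 and 34.1 on the right, where they fall with CFUE and ERY.

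Presence alone divided the types as follows. Of the 53 elements 11 had a peak in all 4 CFUE and ERY libraries and in none of the MON and NEU libraries, 20.8% against a background of 1.57% of all elements. They were R1, R2, R3, Rm, the promoters of Hba-a1 and Hba-a2 and the elements at 8.34, 9.05, 17.29, 21.68 and 22.02 kb. In the other direction 0 of 53 were found, with a background of 1.90%. Against the 6 LSK, CMP and GMP libraries 5 elements were present in CFUE and ERY only (9.43%, background 0.605%), which were R3 and the elements at 8.34, 9.05, 21.68 and 22.02 kb, and 0 were absent only there (background 4.49%). With 50000 peaks kept per list the 5 became 11, and with an overlap of 75 bp needed for merging 8. Without LSK replicate 2, which had fewer peaks than its partner, 2 elements were present in the multilineage libraries and in none of CFUE and ERY.

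MEP and GMP, which both follow CMP, were compared with each other, and CMP itself already had peaks at R1, R2, Rm, R4 and the Hba-a1 promoter in both libraries. R1, R2, R3, R4 and the Hba-a1 promoter had a peak in both MEP libraries and in neither GMP library (5 of 53, background 4.50%), and the elements 51.44 and 45.08 kb upstream and 24.31 kb downstream the reverse (3 of 53, background 10.4%). With 50000 peaks kept per list the 5 became 10 and the 3 became 1, and without GMP replicate 2 the 3 became 8.

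Scores were compared in a fit over all 254316 elements with a peak in at least 2 libraries, of which 35 were in the region, on the log2 scale of the score plus 5, so that low values are understated. The contrasts of CFUE and ERY share those libraries. Elements with no peak in several types have no spread there, which makes their standard errors small. In CFUE and ERY against LSK, CMP and GMP 20 of the 35 were called higher (background 11.2%) and 8 lower (background 42.5%), and the median difference was 1.35 on the log2 scale against -0.22 over all elements tested. R1 was higher by 4.57 ± 0.32 (SE, adjusted p = 2.05e-08), R2 by 4.90 ± 0.16, R3 by 4.78 ± 0.13, R4 by 4.16 ± 0.21 and Rm by 1.69 ± 0.17 (adjusted p = 1.03e-06). The Hba-a1 promoter was higher by 4.40 ± 0.15 and the Hbq1b promoter by 2.39 ± 0.15. The Nprl3 promoter was among those called lower, with -0.81 ± 0.21 (adjusted p = 0.00409), where CFUE and ERY differ from each other as described. The mean scores were 27.5 and 29.1, and with log2(score + 20) the difference was -0.27 and did not pass (adjusted p = 0.10). Against MON and NEU 20 were higher (background 11.5%) and 1 lower (background 14.0%), with R1 at 5.70 ± 0.35, R2 at 5.50 ± 0.17 and Rm at 4.01 ± 0.19. The 1 lower element lay 24.31 kb downstream (-0.51 ± 0.17, adjusted p = 0.036). Its call was lost in 8 of the 24 fits that left out a library. The library median score of elements with a peak in every library differed by 0.49 on the log2 scale in the first of these contrasts. In the second it differed by 0.97, both taken on scores without the added 5. The element 59.36 kb upstream, called higher in both by 0.40 ± 0.12 and 0.67 ± 0.13, lay below these shifts. The element 37.79 kb upstream had 1.15 ± 0.21 and 1.12 ± 0.24.

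In MEP against GMP 7 elements were called higher (background 11.1%), all 5 upstream elements and the 2 alpha promoters, and 4 lower (background 29.6%), the Nprl3 promoter and the elements 51.44 and 45.08 kb upstream and 24.31 kb downstream. R1 was higher by 3.93 ± 0.49 (adjusted p = 1.25e-05), R4 by 3.01 ± 0.32, R2 by 2.64 ± 0.24, R3 by 2.56 ± 0.20 and Rm by 1.24 ± 0.27 (adjusted p = 0.00139). The Hba-a1 promoter was higher by 2.81 ± 0.24. The theta promoters did not pass, with 0.25 ± 0.24 for Hbq1b and -0.25 ± 0.43 for Hbq1a. Without GMP replicate 2 the 4 lower elements became 9. The library median score of elements with a peak in every library differed by -0.82 on the log2 scale in this contrast. After scaling to them R1 had 4.29, R4 3.36, R2 2.98, R3 2.89, Rm 1.82 and the Hba-a1 promoter 3.15, all still called, and the elements 51.44 and 45.08 kb upstream and 24.31 kb downstream had -2.43, -1.37 and -1.15 and were also still called. The Nprl3 promoter (-0.96 ± 0.32, adjusted p = 0.0272) had -0.24 after scaling (adjusted p = 0.291) and lost its call on ranks as well (adjusted p = 0.77). It also lost it without GMP replicate 1, MEP replicate 1 or MEP replicate 2 (adjusted p up to 0.280).

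From MEP to CFUE 16 elements were called higher (background 5.78%) and 0 lower (background 15.1%, also 0 at an unadjusted p under 0.05 in limma). The library median score of elements with a peak in every library rose by 0.83 on the log2 scale in this contrast. The changes are therefore given beside those after scaling to these 10543 shared elements, an alternative chosen after seeing the data. R2 rose by 2.54 ± 0.24 (adjusted p = 1.85e-06) and by 1.78 after scaling, R3 by 2.23 ± 0.20 and by 1.48, the Hba-a1 promoter by 1.92 ± 0.24 and by 1.16, and the Hbq1b promoter by 2.00 ± 0.24 and by 1.3, all of which kept their calls under this scaling. R1 rose by 1.5 ± 0.49 (adjusted p = 0.0442), but scaled it had 0.70 (adjusted p = 0.41), and in 20 of the 24 fits that left out a library its adjusted p, up to 0.170, missed the threshold. R4 rose by 1.44 ± 0.32 and had 0.68 after scaling (adjusted p = 0.099). Rm had 0.76 ± 0.27 and did not pass (adjusted p = 0.0624), though it passed without LSK replicate 1 (adjusted p = 0.00885) or any of 3 other libraries, and after scaling it had 0.03. On ranks within each list 5 elements were called higher, none of them an upstream element or a promoter named here. R1 then differed by 0.54 percentage points, R2 by 6.85 (adjusted p = 1), R3 by 6.54 (adjusted p = 0.86), the Hba-a1 promoter by 4.07 (adjusted p = 1) and the Hbq1b promoter by 13.5 (adjusted p = 0.45). The downstream elements at 8.34, 9.05, 21.68 and 22.02 kb, absent in MEP, rose by 3.19, 4.03, 2.75 and 3.03.

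**Figure D5:**
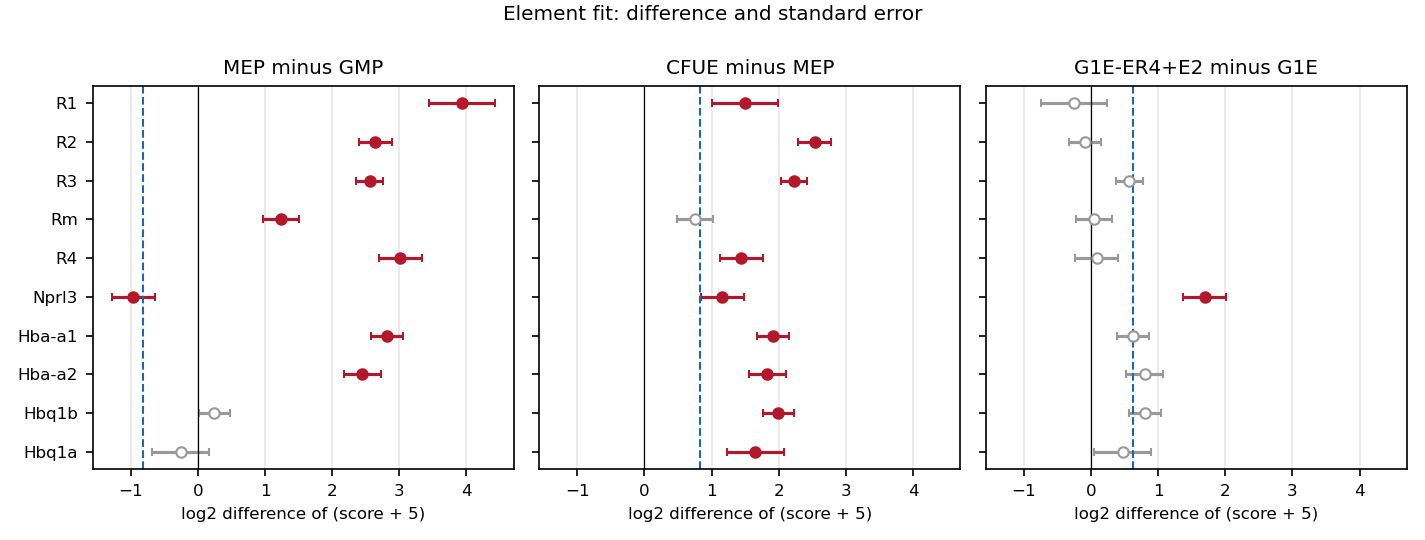
Difference in log2(score + 5) with its standard error for the 5 upstream elements and the 5 promoters in 3 comparisons (filled red points, adjusted p under 0.05), where the dashed line marks the log2 shift in the library median score of the elements shared by all libraries (-0.82, 0.83 and 0.63). R1, R2, R3, R4 and the alpha promoters lie right of the line in MEP against GMP and in CFUE against MEP, and in the cell lines R1, R2, R3, Rm, R4, Hba-a1 and Hbq1a lie left of it (R3 at 0.57, Hbq1a at 0.47 and Hba-a1 almost on it). The line comes from scores without the added 5, so points near it cannot be assigned a side.

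In the cell lines the 5 upstream elements and both alpha promoters had a peak in both G1E libraries, which lack GATA1. G1E-ER4+E2 differs from G1E in the subline, the fusion protein and estradiol at once, and these cannot be told apart here. R1 scored 53.2 and 42.4 in G1E and 44.7 and 33.9 in G1E-ER4+E2, R2 28.2 and 33.4 against 27.1 and 30.1, and Rm 17.6 and 29 against 19.6 and 28.1. R4 scored 16.4 and 27.9 against 21.3 and 25.3. The values of the lines overlapped at these 4 elements as deposited. The differences on the log2 scale were -0.26 ± 0.49, -0.09 ± 0.24, 0.04 ± 0.27 and 0.09 ± 0.32. With each list scaled to the elements shared by all libraries, the 4 were lower in G1E-ER4+E2 without overlap. R1 then had 106.2 and 70.3 in G1E against 56.8 and 36.8, and R2 56.3 and 55.4 against 34.4 and 32.7. Rm had 35.1 and 48.1 against 24.9 and 30.5, and R4 32.7 and 46.2 against 27.1 and 27.5. R3 (14.3 and 15.7 against 29.1 and 20.9) and the promoters of Hba-a1 (27.8 and 31.4 against 44.0 and 53.1) and Hba-a2 (28.6 and 27.5 against 51.1 and 54.1) were higher in both G1E-ER4+E2 libraries as deposited. Their differences of 0.57 ± 0.20, 0.63 ± 0.24 and 0.80 ± 0.27 did not pass the test (adjusted p = 0.157, 0.242 and 0.146), and the library median score of shared elements differed by 0.63 in the same direction. With log2(score + 20) both alpha promoters passed, with 0.46 for Hba-a1 (adjusted p = 0.0172) and 0.60 for Hba-a2 (adjusted p = 0.0036), and after scaling they had 0.07 and 0.25 (adjusted p = 1 for both).

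Only 2 of the 35 elements were called higher in G1E-ER4+E2 (background 3.77%) and 0 lower (background 2.78%). At an unadjusted p under 0.05 in limma these counts were 9 and 1. The called elements were the Nprl3 promoter, with no peak in G1E and 9.48 and 13 in G1E-ER4+E2 (1.69 ± 0.32, adjusted p = 0.00316), and the Rhbdf1 element 59.36 kb upstream, with 0 and 0 against 8.47 and 8.56 (1.43 ± 0.19). The Nprl3 call was lost with log2(score + 20) (0.64, adjusted p = 0.0935), and both were lost when each list was cut at its median score (adjusted p = 0.52 and 1). They were also the 2 elements present in every G1E-ER4+E2 library and no G1E library (background 1.55% of all elements). Most elements have no peak in the lines. Of the 60621 with a peak in either line 14.2% met this rule, against 2 of 22 in the region. That presence count became 4 and 5 without the first and the other G1E-ER4+E2 library. The reverse was shown by 0 (background 0.867% of all elements and 7.98% of those 60621). The relative depth of the G1E libraries was 22.3% and 23.3% and that of G1E-ER4+E2 27.0% and 26.7%, and its part in these calls was not tested. The count of 2 became 5 without either LSK library, where both alpha promoters passed, and 4 without either G1E-ER4+E2 library. ERY exceeded G1E-ER4+E2 by 7.85-fold at R1, 9.67-fold at R2 and 4.05-fold at the Hba-a1 promoter in mean score, between lists of unlike depth and scale.

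Peaks were also counted for each gene with 20 kb on each side, per 100000 called peaks, in a fit over 17047 protein-coding genes. The windows of the 6 genes overlap, and Hba-a2 and Hbq1a hold the same peaks. The Hba-a2 window held 18 and 16 peaks in CFUE, 23 and 21 in ERY, 5 and 4 in MEP, 6 and 4 in GMP, 2 and 2 in NEU and 2 to 11 in the other primary libraries. All 6 genes were called higher in CFUE against MEP (background 3.70%) and 0 lower (background 5.50%), from 1.18 ± 0.24 for Nprl3 (adjusted p = 0.00089) to 2.21 ± 0.35 for Hba-a2, where the median of all genes was 0.21. All 6 were also higher in CFUE and ERY against LSK, CMP and GMP (background 45.7%) and against MON and NEU (background 25.9%), with medians of 1.96 and 1.62 against 0.38 and 0.19 over all genes. Called lower were 0 in both (backgrounds 16.4% and 14.3%). With 5 kb on each side Hba-x fell under the minimum of 3 peaks on average, 4 genes were called in each of these 3 contrasts, and Nprl3 had 0.49 in CFUE against MEP (adjusted p = 0.255). No gene of the 6 was called in MEP against GMP (backgrounds 6.68% higher and 3.72% lower) or between the cell lines (backgrounds 6.79% and 4.05%), where limma gave 1 higher and 0 lower, and 0 of either, at an unadjusted p under 0.05, but with 50000 peaks kept per list all 6 were higher in MEP than in GMP.

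Other genes of the globin and heme pathway were read in the same fit. The shares of all genes given above apply to these counts too, so that 45.7% and 25.9% of all genes were higher in CFUE and ERY against LSK, CMP and GMP and against MON and NEU. Of the 5 beta-globin genes 4 were higher in CFUE and ERY against LSK, CMP and GMP, with a list median of 1.03 against 0.38 over all genes, and 5 against MON and NEU (2.10 against 0.19), where Hbb-bt, an adult beta gene, had 2.16 ± 0.25. In CFUE against MEP 0 of the 5 were called (also 0 at an unadjusted p under 0.05 in limma). Their median was 0.10, against 0.21 over all genes and 1.86 for the 6 genes taken at the alpha-globin locus, Nprl3 among them. Between the lines 2 of the 5 were higher (background 6.79%), Hbb-bh2 by 1.52 ± 0.40 and the embryonic Hbb-bh1 by 1.31 ± 0.33. Of 12 regulators 11 were tested, Ahsp not being matched in the annotation, and 9 were higher in CFUE and ERY against LSK, CMP and GMP, 5 against MON and NEU, 2 in MEP against GMP (Gata1 by 1.79 ± 0.38 and Klf1 by 1.03 ± 0.29), where Lmo2 was lower, and 2 in CFUE against MEP (Lmo2 and Bcl11a). The regulator medians in these 4 contrasts were 0.53, 0.39, 0.17 and 0.40, against 0.38, 0.19, 0.17 and 0.21 over all genes, and those of the heme genes were 0.82, 0.56, 0.20 and 0.59. Of 8 genes of heme synthesis 7 were higher in CFUE and ERY against LSK, CMP and GMP, among them Alas2, the erythroid enzyme of the first step, by 1.64 ± 0.22 and Fech, which inserts the iron, by 1.43 ± 0.18. Of the heme genes 5 were higher against MON and NEU, 2 in MEP against GMP (Alas2 and Fech), 1 in CFUE against MEP (Urod) and 0 between the lines, where Gata1, the gene knocked out in G1E, was the only regulator called, lower in G1E-ER4+E2 by its peak number (-1.13 ± 0.38, adjusted p = 0.046). Among the genes next to the alpha cluster, Snrnp25, Rhbdf1 and Mpg, 0 were called in CFUE against MEP (2 higher at an unadjusted p under 0.05 in limma) and only Mpg against MON and NEU (0.62 ± 0.23, adjusted p = 0.0309).

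Over the 24 libraries the log2 score of the Hba-a1 promoter went along with those of R2 (r = 0.98), R4 (0.97), R3 (0.96) and R1 (0.96), less with that of Rm (0.82), and hardly with that of the Nprl3 promoter (-0.22), as a description over libraries that share their depth and list length. The Hbq1b promoter had r = 0.87 and the Hbq1a promoter 0.58. The 5 genes over 1 Mb away whose peak number per 100000 was most like that of the region were Nob1, Nup54, Rtel1, Cenph and Mfsd2b, with r between 0.92 and 0.94 over the 24 libraries, of which short lists such as those of the lines hold the highest values.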

How the data were processed

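The authors trimmed reads to 30 bases, aligned them to mm10 with Bowtie 0.12.8, allowing reads with several places, removed mitochondrial and unplaced sequences, and used bedtools and SAMtools, for which the submitters' notes name 1.6 and the methods of the study an older version. Peaks were called by them with HOMER, 1 library at a time. The deposited peak lists give position, a score without a stated unit and a whole number, also recorded as a score, that was not tested. Here peaks overlapping by 1 bp or more were merged (Python 3.11.15, numpy 2.4.6, pandas 2.3.3, scipy 1.17.1, matplotlib 3.10.9) and annotated with GENCODE vM21. Groups follow the titles, which name the cell type, and replicates are numbered in accession order. The methods of the study allow replicates from separate groups of mice or from separate sorting aliquots of the same mice. Which applies to each type was not used here, so the spread behind the p-values is that of these libraries and may be technical.

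Differences were fitted with limma 3.58.1 (R 4.3.3, variance trend, robust for genes, 12 group means, Benjamini-Hochberg over all elements or genes, two-sided, threshold 0.05), on log2(score + 5) for elements with a peak in 2 or more libraries and on log2 peaks per 100000 with a prior of 1 peak for genes with a mean of 3 or more. Both fits were tested on simulated data. Gene counts were drawn with Poisson noise only, and element values with normal noise at each element's own spread. Element changes were planted only where the mean value lay clear of that of no peak. Whether the counts below hold for real elements with no peak in several types was not tested. In the contrast of CFUE and ERY with LSK, CMP and GMP, the gene fit was run on 17047 genes and gave 6 false calls. It found 49 of 50 genes raised 4-fold, 14 of 50 raised 2-fold, 14 of 50 lowered to 0.5-fold and 41 of 50 lowered to 0.25-fold. The element fit was run on 60000 elements and gave 14 false calls. It found 49 of 50 elements raised by 2 on the log2 scale and 26 of 50 raised by 1. Of those lowered by 2 it found 35 of 50 and of those lowered by 1 18 of 50, so lowered elements were missed more often than raised ones. Peak numbers were compared by exact permutation over type means. Named elements are those within 1 kb of 31, 26, 21, 12 and 8 kb upstream of Hba-x, within 500 bp of a member's transcript start, or without overlap between groups. Those 29.15 kb upstream and at the 3′ end of Nprl3, and 59.36 kb upstream in the erythroid contrasts, were added after their values were seen. The members and lists were chosen with earlier results of these data known. Depth in reads is not known from these lists, so no counting intervals are given. Part of the erythroid marker list is not reported here.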

Additional observations from a re-analysis of the deposited data

Results flagged for a closer look

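In the 35 sets of 4 to 8 values examined, a lowest or highest value far from the rest was met 2 times, and chance gives this in about 1 of 20 sets. MON replicate 1 had 18 peaks in the region, while MON replicate 2 and both NEU libraries had 11 each. At the Hbq1a promoter GMP replicate 1 scored 17.3, while the other 5 libraries of LSK, CMP and GMP lay between 8.29 and 10.7.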

How the results depend on the processing

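The peak number of the region (6.31 more in the erythroid types) passed its test per 100000 called peaks (19.0), with 50000 peaks per list (15.5), with no flank (7.38), in primary types only (12.2) and in the 7 types with adjoining library numbers (10.7), and ran from 5.19 to 7.44 with a library left out. Elements in CFUE and ERY but not in LSK, CMP and GMP numbered 8 with an overlap of 75 bp and 11 with 50000 peaks per list, where those in MEP but not GMP numbered 10 and the reverse 1. Those in G1E-ER4+E2 but not G1E numbered 1 when the lower-scored part of each list was dropped at its median. With a library left out the ranges were 11 to 12, 0 to 0, 5 to 6, 0 to 2, 5 to 6, 3 to 8, 2 to 5 and 0 to 1, in the order of the report. In the element fit, those lower in CFUE and ERY than in MON and NEU numbered 0 with log2(score + 20), with all elements and with that drop, and 2 on ranks. On ranks 5 were higher in CFUE than MEP and 5 in G1E-ER4+E2 than G1E. With a peak in 6 or more libraries required, 3 were lower in CFUE and ERY than in LSK, CMP and GMP. With a library left out, called elements ran from 18 to 20 higher and 8 to 10 lower, 18 to 20 and 0 to 1, 7 to 8 and 3 to 9, 12 to 17 and 0 to 0, and 2 to 5 and 0 to 1 in the 5 contrasts. Member genes higher in MEP than GMP numbered 6 with 50000 peaks per list, and the counts of member genes did not move with a library left out. The Nprl3 promoter turned to -23.0 percentage points on ranks against MON and NEU, and the element 59.36 kb upstream to -0.91 percentage points on ranks against LSK, CMP and GMP and to -0.091 after scaling against MON and NEU. The cause was not tested. Of 3314 repeats for single elements 3185 kept their side of the threshold. These may hold changes of sign, which were set apart only where the main fit or the repeat passed the threshold. The labels give library numbers but no replicate numbers. Those of the 7 types form 2 parallel runs, and the deviations of same-run libraries correlated by -0.055 to 0.062 over 21 pairs of types. No strong shift shared within a run was seen, but this cannot tell whether the libraries of a run were prepared together. With the run as a replicate block in these types, added after seeing the data, 7 elements were higher and 6 lower in MEP than in GMP and 17 and 0 in CFUE than in MEP, as without the block. Member genes called were 0 and 0, and 6 and 0. The low depth of the cell lines limits what their missing peaks show.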
